A study of Mus musculus with 2 samples.

Results

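Myc and 8 genes of nucleolar growth were followed across 2 mouse lung sections by spatial transcriptomics. The 9 genes, of 32285 features in the files, were chosen by symbol from earlier results of the same data: Myc, 7 nucleolar genes (Ncl, Npm1, Fbl, Nop56, Nop58, Ddx21 and Rrs1) and Odc1. Each symbol matched 1 feature. Myc lies at chr15:61985341-61990361, Npm1 at chr11:33152498-33164142, Ncl at chr1:86344719-86359455, Fbl at chr7:28168893-28179269, Nop56 at chr2:130274367-130279313, Nop58 at chr1:59684961-59711510, Ddx21 at chr10:62580247-62602298, Rrs1 at chr1:9545408-9547455 and Odc1 at chr12:17544808-17551502 in the RefSeq annotation of GRCm38.p6, the assembly of the mm10 build named in the labels. Counts were summed over each whole gene, not by exon. The question was how the 9 genes are distributed over the metastasis, its margin, lung far from it and control lung, and whether the nucleolar genes follow Myc from spot to spot.

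Myc is a transcription factor that binds DNA as a dimer with Max and raises the transcription of genes for ribosome production, metabolism and cell division. Ribosomes are assembled in the nucleolus, where ribosomal RNA is transcribed by RNA polymerase I, modified under the guidance of small nucleolar RNAs (snoRNAs), and folded onto ribosomal proteins. Nucleolar genes and Odc1, the rate-limiting enzyme of polyamine synthesis, are long known as genes that respond to Myc, and large nucleoli are a common feature of fast-growing tumour cells.

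The metastatic section came from the lung of a female Balb/c mouse of 6 to 8 weeks that received 1000000 4T1 cells, a mouse mammary carcinoma line, in the mammary fat pad and was sacrificed after 21 to 23 days. The control section was labelled as normal lung. Each group was 1 section, so no value below has a replicate check of the condition, and no test between groups was made. A Visium spot is a small area that holds several cells, often of different types, and its counts are unique molecules captured from all of them. The metastatic section had 1110 spots with 14657881 counts (median 11334.5 per spot) and the control section had 1888 spots with 20329126 counts (median 9643.5). The sections shared 858 barcodes, which on this slide type are array positions and not cells.

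The metastasis core was set by the summed level of Csn3, Etv4 and Mmp3, 3 genes high in this metastasis, at a threshold that split the spots of the metastatic section at 0.972 counts per 10000. Of 143 spots above the threshold, 33 had no neighbour above it and were left out, and 110 spots in 13 groups of touching spots formed the core. The lowest core spot stood at 0.978 and the highest spot below the threshold at 0.965, so no gap marked the boundary. Of the 1888 control spots, 39 stood above the same level. One group of 69 touching spots held 103 of the 105 core counts of Csn3 and 456 of the 505 of Mmp3, and is called the main body below. The next groups held 8, 5 and 5 spots. At the closest they lay 173, 200 and 173 um from the main body, so they may be parts of the same metastasis. The margin was the 185 spots within 200 um of a core spot, the intermediate zone 254 spots up to 500 um, and far lung the 528 spots beyond. The main body was the nearest core group for only 6 far spots. Of the others, 220, 93 and 69 were nearest to groups of 2 spots, each without a Myc count. Distances in far lung are thus mostly from small groups and not from the main body.

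Most of the markers used for 4T1 cells were lower in the core than in far lung. They were general epithelial genes and Spp1, which is not an epithelial marker. Spp1 stood at 7.52 counts per 10000 in the core against 1.70 in far lung, Krt18 at 1.55 against 0.811 and Krt8 at 2.33 against 1.48, and these 3 of 10 testable markers were at least 1.5-fold higher, beside 40.9% of all genes tested. With 12 very abundant genes left out of the totals only Spp1 was, beside 18.0%. The other 7, among them Epcam (0.166 against 0.546) and Cldn7 (0.0621 against 0.890), were at least 1.5-fold lower under both totals, beside 20.5% and 36.1% of all genes, and Krt14 was at 0 in both regions. Most of these genes are also expressed by lung epithelium. The core is therefore named by the 3 genes of its rule. The secretory protein Scgb1a1 alone took 28.5% of all counts in far lung, 15.2% in control lung and 0.370% in the core, so every level per 10000 counts in far lung is lowered by this share.

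**Figure D1:**
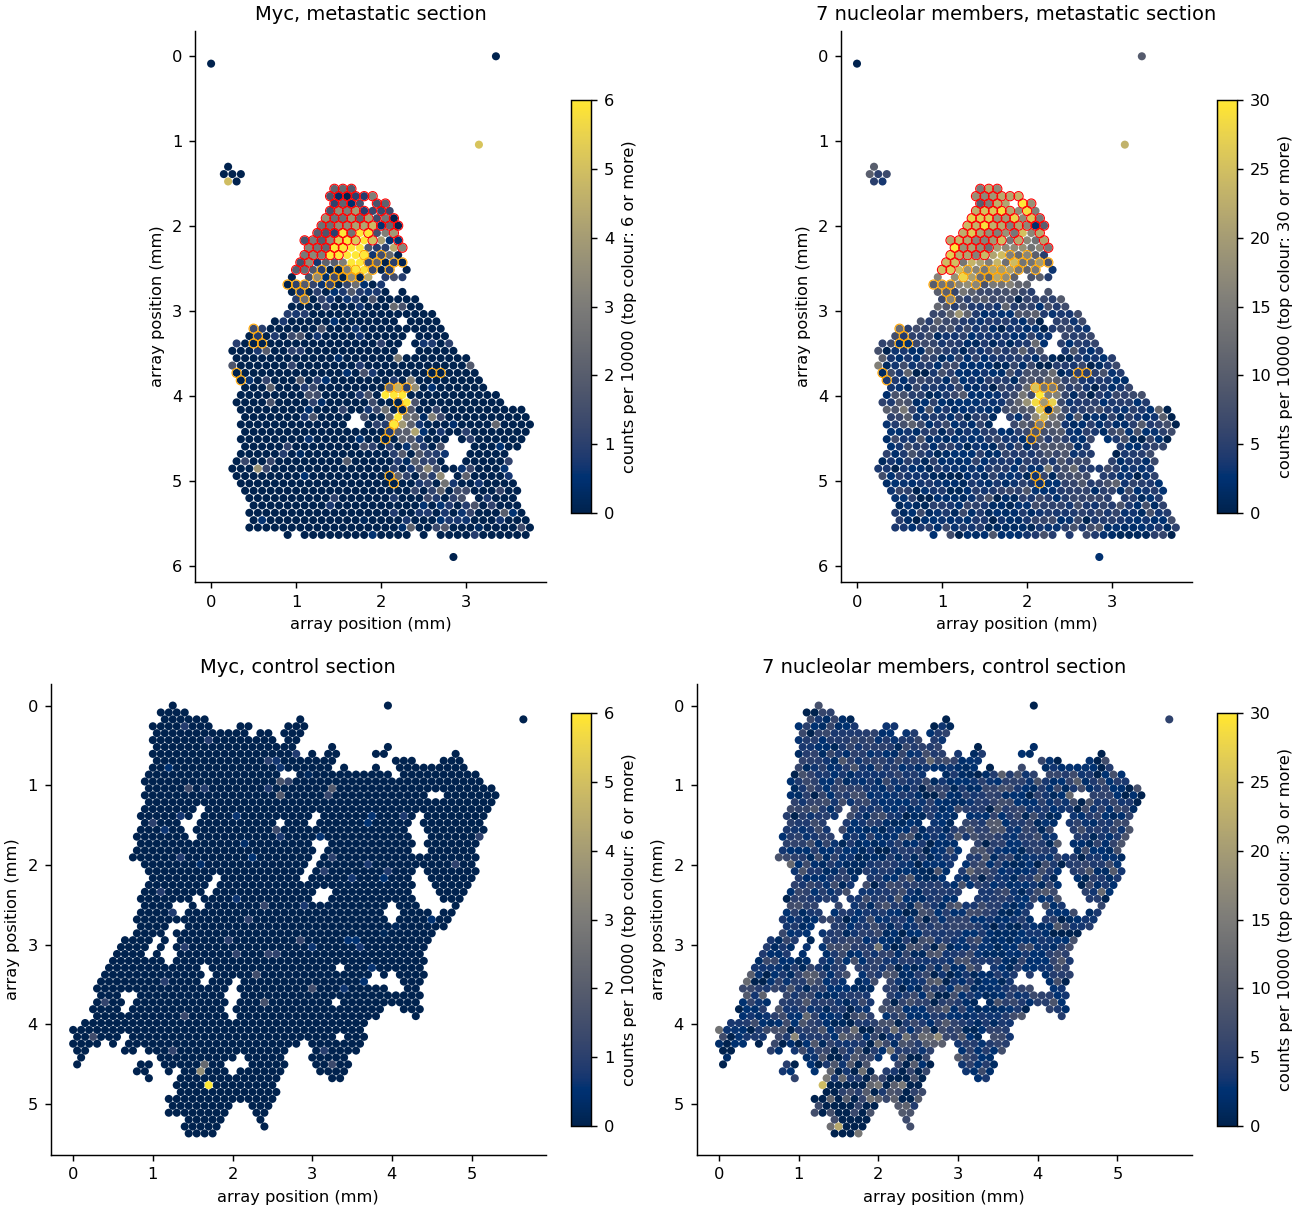
Spots of the metastatic (top) and control (bottom) sections at their array positions in mm, coloured by counts per 10000 of Myc (left, colours end at 6) and of the 7 nucleolar members together (right, colours end at 30). Red rings mark the 69 spots of the main body and orange rings the other core spots. Spots with at least 6 Myc counts numbered 54 in the metastatic section and 0 in the control section.

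Myc was higher in the core than in any other region. Its 488 counts in 110 core spots gave 2.53 counts per 10000 (95% Poisson interval 2.31 to 2.76). The level was 1.06 (0.930 to 1.21) in the margin, 0.310 (0.251 to 0.379) in the intermediate zone, 0.171 (0.142 to 0.204) in far lung and 0.0364 (0.0286 to 0.0457) in control lung. All 5 intervals lie apart. Such intervals cover counting error only, not the spread between spots or mice. Over core spots Myc ran from 0 through a median of 2.19 to 14.6 counts per 10000, and over margin spots from 0 through a median of 0 to 19.6, so single spots of both regions overlapped. At an equal depth of 5000 counts per spot, 64.8% of core spots held a Myc count (exact binomial interval 54.8% to 73.8%), against 29.2% of margin, 6.16% of far and 2.16% of control spots. Spots under this depth were dropped, which left 105 core, 171 margin, 487 far and 1526 control spots. Without thinning these shares were 82.7%, 46.5%, 16.3% and 3.87%.

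Myc was not spread evenly over the metastatic tissue. In the main body it stood at 2.81 (2.55 to 3.10) counts per 10000. In the 16 margin spots nearest to the main body it stood at 3.46 (2.75 to 4.29), so the level did not stop at the edge set by the 3 core genes. Csn3 had no count in these spots, but it also had none in the core group of 8 spots. All adjacent margin spots together held 22 Etv4 and 18 Mmp3 counts. Whether these margin spots hold metastatic tissue is thus not settled. The 23 core spots in groups of fewer than 5 had a lower level of 1.01 (0.634 to 1.53). These groups are mixed: some lay 173 um from the main body at the closest, and others 854 to 2623 um. Of the 54 spots with at least 6 Myc counts, 42 lay in the core, 38 of them in the main body, 11 in the margin and 1 in the intermediate zone. On the map the brightest spots lay along the lower edge of the main body and in a separate patch lower in the section.

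The 7 nucleolar members followed the same order in the metastatic section. Together they gave 20.2 (19.6 to 20.9) counts per 10000 in the core, 9.15 (8.76 to 9.56) in the margin, 4.67 (4.43 to 4.91) in the intermediate zone and 3.38 (3.25 to 3.52) in far lung. Control lung stood at 3.70 (3.62 to 3.79), above far lung. As a sum these genes were thus widely present in lung without metastasis: 92.2% of control spots held at least 1 count of the 7 together. This does not hold for each member. In the 1815 control spots without a Myc count, Ncl had 2718 counts and Npm1 2185, but Ddx21 had 365, Rrs1 206 and Nop58 170. Their sum ran over core spots from 0 through a median of 18.8 to 32.8, over far spots from 0 through 3.34 to 23.1 and over control spots from 0 through 3.69 to 24.5.

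**Figure D2:**
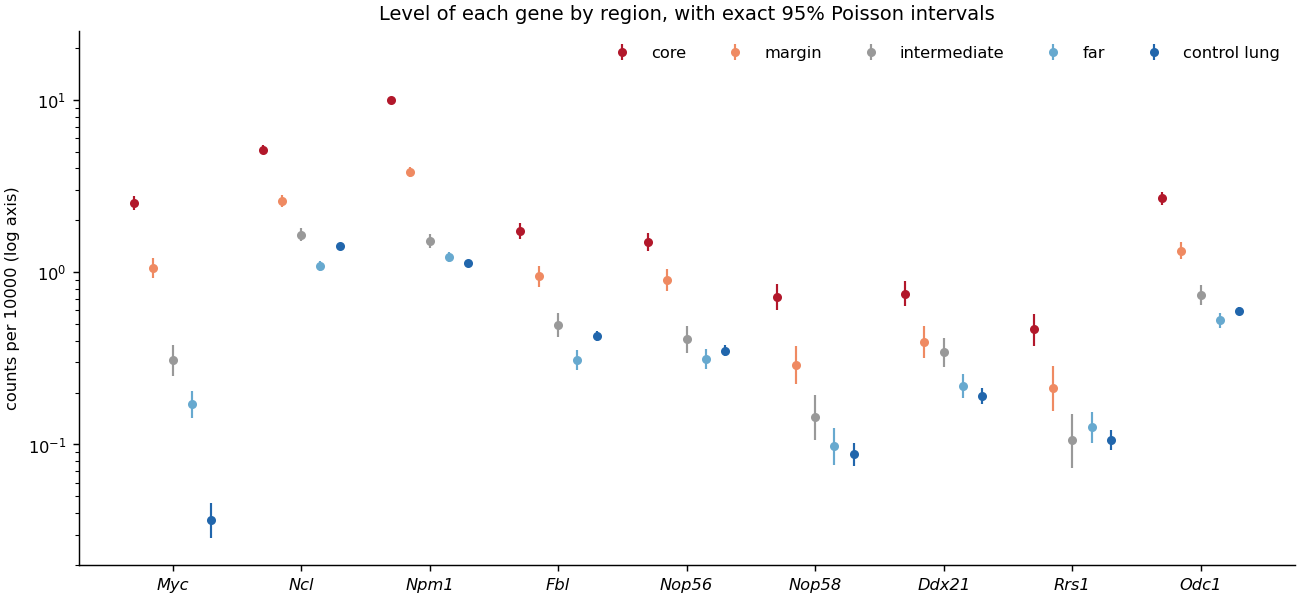
Pooled level of each gene in 5 regions, in counts per 10000 on a log axis, with exact 95% Poisson intervals (counting error only). Core spots are highest for each of the 9 genes, and only Myc separates far lung (0.171) from control lung (0.0364) by more than 1.5-fold.

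Npm1, the nucleolar chaperone nucleophosmin, had the largest core over far ratio of the 7, with 9.93 counts per 10000 in the core, 3.81 in the margin, 1.23 in far and 1.13 in control lung (core over far 8.07, 7.45 to 8.75). Npm1 and several ribosomal protein genes have processed copies elsewhere in the genome, and how reads shared with such copies were counted is not given in the sources used here. Ncl, the nucleolar phosphoprotein nucleolin, stood at 5.14, 2.60, 1.09 and 1.41 in the same 4 regions (core over far 4.74, 4.31 to 5.21). The ratio of Npm1 lay above that of Ncl with intervals apart.

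Fbl, Nop56 and Nop58 code for core proteins of the box C/D snoRNA particles, in which fibrillarin is the enzyme that methylates ribosomal RNA. Fbl stood at 1.74 counts per 10000 in the core and 0.308 in far lung (5.66, 4.76 to 6.74). Nop56 stood at 1.496 and 0.312 (4.79, 4.01 to 5.73) and Nop58 at 0.719 and 0.0981 (7.33, 5.46 to 9.92). The intervals of the 3 ratios overlap in part, and these proteins sit in 1 particle.

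Ddx21, an RNA helicase that links RNA polymerase I with ribosomal RNA processing, and Rrs1, an assembly factor of the large ribosomal subunit, had the smallest ratios. Ddx21 stood at 0.750 counts per 10000 in the core and 0.219 in far lung (3.43, 2.72 to 4.33), and Rrs1 at 0.466 and 0.126 (3.69, 2.73 to 5.003). Odc1 stood at 2.69 in the core, 1.33 in the margin, 0.525 in far and 0.596 in control lung (core over far 5.12, 4.48 to 5.86). Myc itself had a core over far ratio of 14.8 (12.1 to 18.2), above the upper bound of each of the other 8.

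All 9 genes were at least 1.5-fold higher in the core than in far lung, as were 40.9% of the 10959 genes with at least 50 counts in both regions together. The members were chosen with this contrast known, so the count is a description. The median log2 ratio was 0.38 over all these genes and 2.26 over the nucleolar members. Leaving the 12 abundant genes, of secretory, surfactant and haemoglobin kind, out of the totals lowered the ratios to 9.59 for Myc and 3.89 for the nucleolar sum. It lowered every core over far log2 ratio by the same 0.62, so the median of all genes moved from 0.38 to -0.25. The share of all genes at least 1.5-fold higher then fell from 40.9% to 18.0%, the share lower rose from 20.5% to 36.1%, and 9 of 9 members were still counted as higher. Taking far lung beyond 1000 um raised that of Myc to 22.8. In the 2 groups of 5 spots taken alone, the ratios were 12.7 and 7.25 for Myc and 5.09 and 3.73 for the nucleolar sum. Both groups lie close to the main body, so they are not separate checks of it. Macrophage, proliferation and other cell markers moved in the same contrast. All 17 proliferation genes were at least 1.5-fold higher in the core (summed level 15.7 against 1.66 counts per 10000, spots from 0 to 30.3 against 0 to 51.3), as were 10 of 11 macrophage and monocyte genes (53.1 against 28.0, spots from 14.3 to 190 against 0 to 127), with none of either list at 0. Their part in the result was not tested. In such spots more cells of a kind and more RNA per cell cannot be told apart.

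In the margin, 9 of 9 genes were at least 1.5-fold higher than in far lung, beside 40.4% of 11010 genes (4.28% were lower). With the abundant genes left out of the totals it was 7 of 9, without Ddx21 (1.28) and Rrs1 (1.196), beside 10.9% (12.5% lower). Myc was 6.21-fold (4.97 to 7.79) higher and the nucleolar sum 2.71-fold (2.55 to 2.87). The pooled margin mixed unlike groups. Myc stood at 3.46 counts per 10000 in the margin around the main body. Around the core groups of 2 spots it stood at 0.0428 (1 count in 20 spots), 0.952, 1.71, 0.194 and 0.224, the lowest of these below the level of far lung. The rise was steepest next to the core. In the 107 adjacent margin spots Myc stood at 1.57 counts per 10000 and the nucleolar sum at 11.3, and in the 78 margin spots further out at 0.332 and 6.05. Markers of cell types moved in the margin as well. All 17 proliferation genes were at least 1.5-fold above far lung (summed level 7.42 against 1.65 counts per 10000), as were 11 of 11 macrophage and monocyte genes (67.2 against 28.0), 8 of 9 T and NK cell genes (3.897 against 1.36) and 5 of 5 B cell genes (2.88 against 1.07). Their part in the result was not tested. Against far lung, Myc was 1.94-fold higher in the outer margin alone and 9.18-fold in the adjacent margin. Beyond the margin, 4 of 9 genes (Myc, Ncl, Fbl and Ddx21) were at least 1.5-fold higher in the intermediate zone than in far lung, beside 14.5% of all genes. This contrast was not repeated with the abundant genes left out of the totals. Scgb1a1 alone took 16.9% of counts in the intermediate zone and 28.5% in far lung, so the 4 calls may depend on the totals used.

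**Figure D3:**
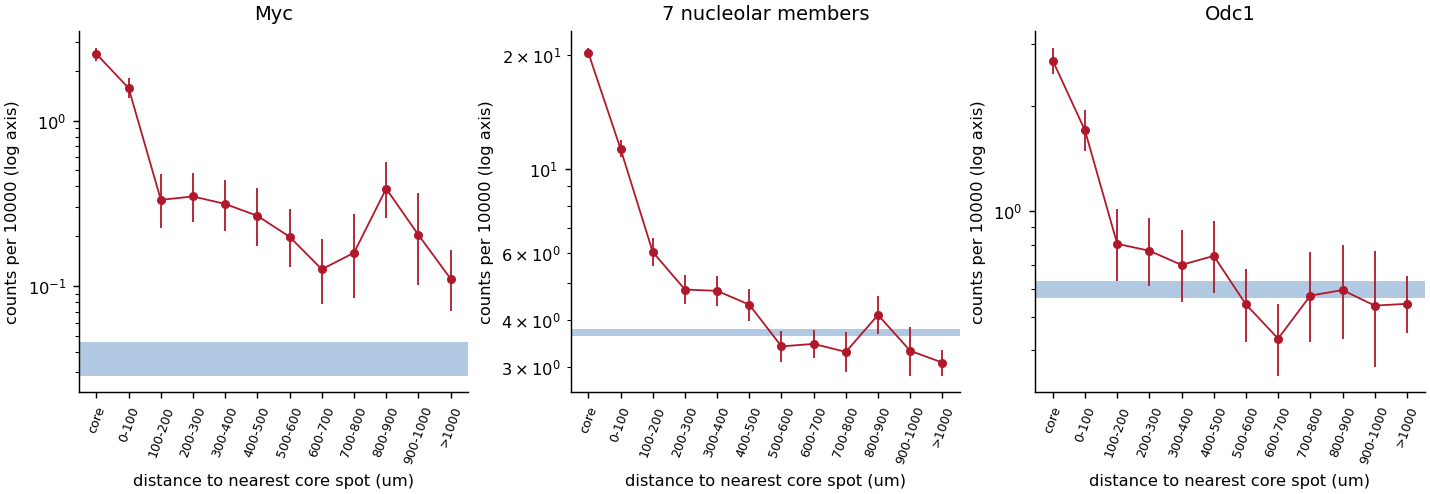
Level of Myc, of the 7 nucleolar members together and of Odc1 by distance from the nearest core spot in um, in counts per 10000 on a log axis with exact 95% Poisson intervals. The blue band is the interval of control lung. Most spots beyond 500 um were nearest to small core groups and not to the main body. Myc fell from 2.53 in the core to 0.332 at 100 to 200 um and stayed above control lung in each ring, while the nucleolar sum lay between 3.09 and 4.13 beyond 500 um, around the control level of 3.70.

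Far lung differed from control lung for Myc and not for the others at this size. Myc was 4.70-fold (3.49 to 6.36) higher in far lung, from 122 counts against 74. It was the only one of the 9 genes at least 1.5-fold higher, beside 2.09% of 13292 genes (18.1% were lower), or 4.80% (8.04% lower) with the abundant genes left out. Its ratio was 3.04 with far lung beyond 1000 um and 3.23 at equal depth. The nucleolar sum was 0.913 (0.871 to 0.956) of the control level, but 1.08 with the 12 abundant genes left out of the totals, so its direction depends on the library size used. Npm1 (1.09), Nop58 (1.12), Ddx21 (1.14) and Rrs1 (1.19) had ratios above 1, and Ncl (0.769), Fbl (0.724), Nop56 (0.893) and Odc1 (0.881) below 1. By its rule far lung held no spot above the marker threshold, while control lung kept its 39. Neutrophil genes stood 7 of 7 higher in far than in control lung, with a summed ratio of 10.2. Other lists were lower in far lung: 8 of 8 cardiac muscle genes (summed level 0.692 against 35.3 counts per 10000), 8 of 8 B cell genes (1.07 against 2.33), 6 of 8 fibroblast genes (33.9 against 48.5) and 11 of 17 proliferation genes (1.65 against 2.53), or 6 of 17 with the abundant genes left out. Their part in the Myc difference was not tested. Section and condition cannot be told apart here.

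Most far spots had no Myc count, and most of those with Myc had a single count. Of 528 far spots, 442 had no Myc count, 60 had 1 count, 17 had 2 and 9 had 3 to 5. The 9 spots held 28 of the 122 counts, lay 529 to 889 um from the nearest core spot, and 5 of them touched another. For 5 of the 9 the nearest core group was a single group of 2 spots, which held no Myc count. A ring at 800 to 900 um had 0.388 (0.258 to 0.560) Myc counts per 10000, against 0.126 (0.0781 to 0.193) at 600 to 700 um. In the 5% of far spots richest in plasma cell genes Myc was 3.19-fold (1.69 to 5.58) higher than in the other far spots, from 14 counts, and in those richest in club cell genes it was 0.317-fold (0.125 to 0.675) as high. The nucleolar sum showed the same order, 1.60-fold (1.34 to 1.89) and 0.592-fold (0.517 to 0.676). Each of the spots richest in club cell genes held at least 6170 counts per 10000 of those genes, so every other level there is lowered by this share. These classes were compared for each of the cell type lists, so such extremes are picked from many.

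Whether nucleolar genes followed Myc from spot to spot depended on which spots were taken. Over the 110 core spots the Pearson correlation of log levels was 0.53 (Spearman 0.46). Over the 185 margin spots it was 0.54 (0.54), over far lung 0.18 (0.13) and over control lung 0.00 (0.01). In the 69 spots of the main body alone it was 0.07 (0.06), and in the 37 core spots whose neighbours were all core it was 0.34 (0.27), with 0.53 for Npm1 alone. In the margin spots nearest to the main body it was 0.06 over 16 spots, and around the groups of 8, 5 and 5 spots it was 0.47 over 17, 0.65 over 10 and 0.08 over 14, so the value of the whole margin did not hold around each group. In the 23 core spots of groups under 5 spots it was 0.67 (0.73). Some of these sets overlap, spots share a library and neighbouring spots share tissue, so these values are descriptions without a p. At equal depth the values were 0.41 for core, 0.35 for margin and 0.17 for the main body.

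**Figure D4:**
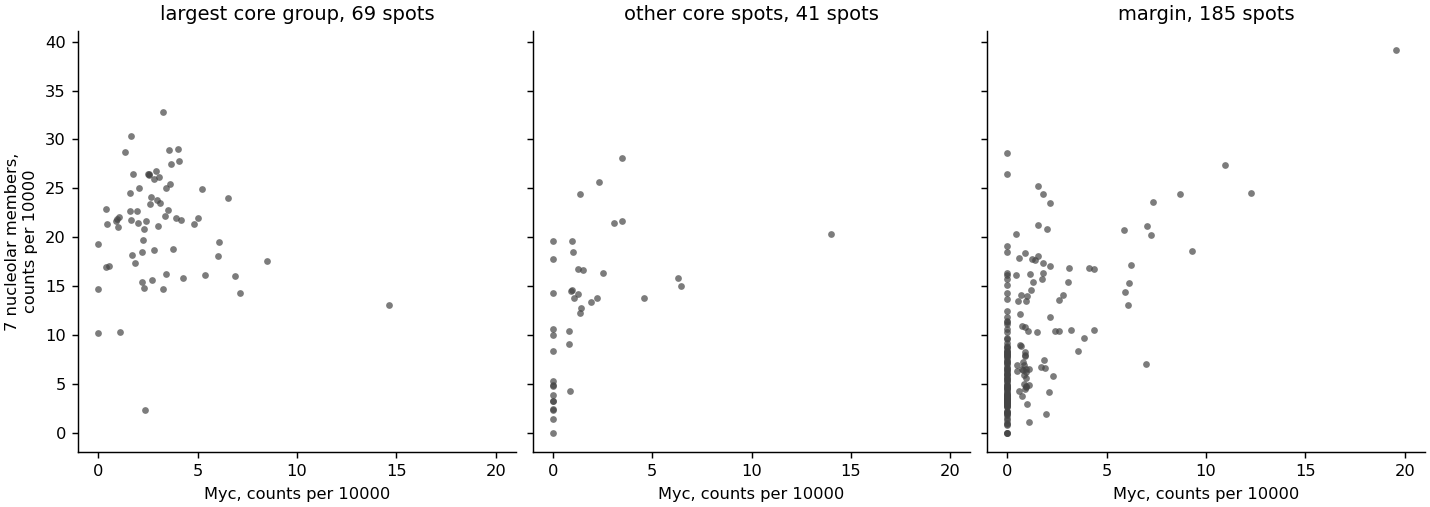
Myc (x axis) against the 7 nucleolar members together (y axis) in each spot, both in counts per 10000, for the main body, the other core spots and the margin. The main body forms a cloud around medians of 2.64 and 21.8 with little slope (Pearson 0.07 on log levels), while the margin spreads from spots low in both to spots high in both (0.54).

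Across bins of Myc counts the nucleolar sum rose in the core and levelled off. It was 9.58 (8.24 to 11.1) counts per 10000 in 19 core spots without a Myc count, 15.6 (13.9 to 17.5) with 1 count, 19.3 (17.5 to 21.2) with 2, 21.7 (20.2 to 23.3) with 3 to 5 and 22.9 (22.0 to 23.9) with 6 or more. Depth rose with it, from a median of 9368 counts per spot in the first bin to 23510.5 in the last. Inside the main body the same bins ran from 16.1 (12.8 to 19.997) through 21.8 (20.2 to 23.6) to 23.2 (22.2 to 24.2), the first from only 3 spots. Median depth rose there as well, from 15708 through 17738 to 23724 counts per spot. In the margin they ran from 5.90 (5.46 to 6.36) to 17.9 (15.9 to 20.01), at similar depths of 10835 and 12846. In control lung, 72 spots with 1 Myc count had 3.82 (3.45 to 4.23) and 1815 spots with none had 3.70 (3.61 to 3.78).

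Single members differed in how they went with Myc. Over core spots the correlation with Myc was 0.50 for Npm1, 0.39 for Fbl, 0.38 for Nop56, 0.34 for Ncl, 0.19 for Nop58, 0.16 for Odc1, 0.14 for Rrs1 and -0.04 for Ddx21. In the main body Fbl (0.24), Nop56 (0.15) and Npm1 (0.13) were above 0 and Odc1 (-0.23), Ncl (-0.22) and Ddx21 (-0.17) below. Weak values in counts this sparse carry little. The nucleolar members also varied with other measures there: in the main body their sum had a correlation of 0.39 with the proliferation genes, 0.43 with Odc1 and 0.64 with the total counts of the spot, while Myc had -0.43 with the proliferation genes and -0.18 with the total. Holding the proliferation genes fixed, the partial correlation of Myc with the nucleolar sum in the main body was 0.28, and holding the total counts fixed it was 0.23.

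The genes most like Myc over spots were ribosomal protein genes, not nucleolar factors. Of 8374 genes ranked over the 1110 spots of the metastatic section, all 10 with the highest correlation were of this family, led by Rpl37 (0.65), Rps20 (0.63) and Rpl23 (0.62), all structural parts of the ribosome. Npm1 ranked 19 (0.55), Odc1 156, Ncl 163, Nop56 170, Fbl 193, Nop58 471, Rrs1 646 and Ddx21 1333. Over the core the top 10 of 1468 genes were again all ribosomal protein genes, and in the main body the top 10 of 1061 as well, led by Rps4x (0.69). These genes are among the most deeply counted, and sparse genes reach lower correlations. Of the 10 genes most like the nucleolar sum, 8 were ribosomal protein genes over the metastatic section and 4 over core spots. Over core spots the others included Hspe1, a mitochondrial chaperone (0.81), the calcium-binding S100a6 (0.81) and S100a4 (0.77), and Nme2, a nucleotide kinase (0.74).

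Most tested genes of the 5 other nucleolar lists were at least 1.5-fold higher in the core, and fewer with the abundant genes left out of the totals. Of 16 RNA polymerase I genes with enough counts, 13 were at least 1.5-fold higher in the core than in far lung and 0 lower (median log2 1.28, against 0.38 over all genes, of which 40.9% were higher and 20.5% lower), with Cd3eap at 5.91, Taf1d at 5.82 and Tcof1 at 4.10. Znrd1 (1.05), Twistnb (1.10) and Ttf1 (1.26) stayed below that size. All 10 snoRNA particle genes were higher (median 1.55), from Dkc1, the pseudouridine synthase dyskerin (6.67), Gar1 (4.70) and Nolc1 (3.45) down to Nop10 (2.34), Naf1 (2.21) and Znhit3 (1.64). Of 33 genes of the small subunit processome 30 were higher (median 1.304), led by Utp4 (5.50), Wdr75 (4.92) and Tsr1 (4.71). Of 41 large subunit assembly genes 36 were higher (median 1.62), led by Wdr12 (6.20), Rpf2 (5.28) and Ppan (5.12), while Gnl3l (0.970) and Las1l (0.917) were not. Of 10 other nucleolar genes 8 were higher (median 1.61), with Npm3 at 5.08, Nsun2 at 4.46 and Mybbp1a at 4.34. None of these nucleolar genes was at least 1.5-fold higher in far than in control lung, but with the abundant genes left out of the totals Shq1, Gar1 and Noc3l were. For the core, leaving them out gave 8 of 16 RNA polymerase I genes (median 0.65), 8 of 10 snoRNA particle genes (0.93), 19 of 33 small subunit genes (0.68), 29 of 41 large subunit genes (0.99) and 7 of 10 other nucleolar genes (0.99) as higher, against a median of -0.25 over all genes, of which 18.0% were higher.

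The polyamine and Myc network genes were divided, while most other Myc target genes were higher in the core. Among 14 polyamine genes 7 were higher and 1 lower in the core (median log2 0.66), beside 40.9% and 20.5% of all genes. With the abundant genes left out of the totals 5 were higher and 3 lower (median 0.04), beside 18.0% and 36.1%. Under both totals the share higher was above, and the share lower below, that of all genes. The list has only 14 genes, and the difference was not tested. Arg1, the arginase that makes ornithine, stood at 1.07 against 0.105 counts per 10000 (10.1, 7.75 to 13.4), Srm, spermidine synthase, at 1.78 against 0.237 (7.50, 6.22 to 9.07) and Eif5a, whose protein is modified with spermidine, at 9.50 against 2.94 (3.23). Oaz2, an antizyme that limits ornithine decarboxylase, was lower (0.611, 0.527 to 0.706). Arg1 was also 8.22-fold (5.20 to 13.4) higher in far than in control lung. Of 25 other genes known as Myc targets 19 were higher and 3 lower (median 1.83), beside 40.9% and 20.5% of all genes. With the abundant genes left out 18 were higher and 5 lower (median 1.21), beside 18.0% and 36.1%. The replication helicase subunit Mcm5 stood at 8.80, the amino acid transporter Slc7a5 at 7.47 and the folate enzyme Mthfd2 at 7.07. The lowest were the cell cycle inhibitor Cdkn2b at 0.246, Cdkn1b at 0.514 and Slc3a2 at 0.563. Cdkn2b and Cdkn1b are known as genes that Myc represses. Whether Myc had a part in any of these ratios was not tested.

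Of 17 Myc network genes 6 were higher and 3 lower, with a median log2 of 0.10, beside 40.9% and 20.5% of all genes. With the abundant genes left out of the totals 2 were higher and 7 lower (median -0.52), beside 18.0% and 36.1%. The network as a list was thus near all genes. Mxd3, a Max partner found in dividing cells, stood at 0.279 against 0.0140 counts per 10000 (19.9, 10.1 to 43.9). Ruvbl1 (2.81) and Ruvbl2 (2.10), ATPases that bind Myc, were higher. Mxd4 (0.331), Mycl (0.360) and Mxd1 (0.436) were lower, the first and the last being Max partners that oppose Myc. Max itself, named outside the rule after its value was seen, had a ratio of 1.55. Of 15 genes upstream of Myc 3 were higher (Wnt7b 12.1, Areg 11.6 and Fgfr1 2.88) and 7 lower, among them Wnt4 (0.148), Erbb3 (0.252) and Lef1 (0.357), and with the abundant genes left out 3 were higher and 9 lower (median -0.86), beside the same shares of all genes.

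**Figure D5:**
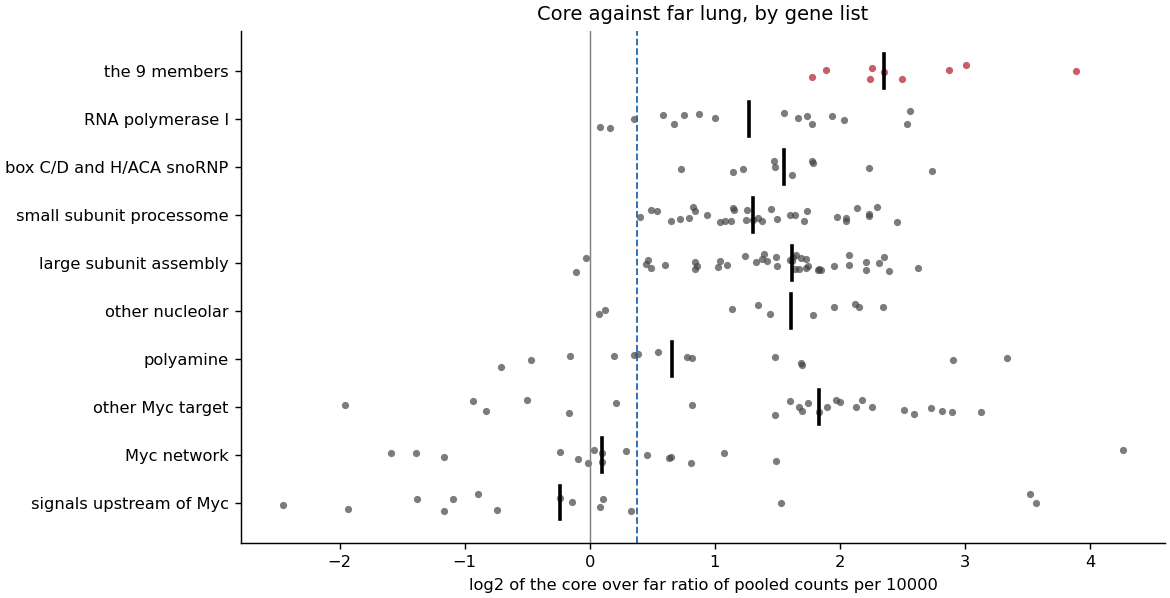
Log2 of the core over far ratio of each gene (points) and the median of each list (black bars). The dashed line is the median of all 10959 genes (0.38). The 5 nucleolar lists lie to the right of it, with medians from 1.28 to 1.62, while the Myc network genes scatter around 0.10.

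The sequence around the start was available for 5 of the 9 genes, from RefSeq (GRCm38.p6). Each window runs past the start, so part of it lies inside the gene. Sequence outside these windows, including the rest of each gene, was not searched. Of 32851 promoters of 300 bases, the Myc and Max motif CACGTG was in 7.15%, on either strand, and in 0 of the 5. Its variant CACGAG was in 6.47% of all promoters and in 4 of the 5, and is shown in capitals, as itself or as the reverse complement, in the 4 sequences below. In Nop56 and Odc1 it lies before the gene span printed above, and in Ncl and Nop58 inside it. It was picked after 13 motifs had been searched and is a description. CACGCG was in 9.27% and in 2 of the 5 (Ddx21 and Odc1), CAACGTG was in 1.26% and in Nop58 alone, and the GC box GGGCGG was in 35.7% and in 5 of the 5.
Nop58 promoter, chr1:59684756-59685055, plus strand: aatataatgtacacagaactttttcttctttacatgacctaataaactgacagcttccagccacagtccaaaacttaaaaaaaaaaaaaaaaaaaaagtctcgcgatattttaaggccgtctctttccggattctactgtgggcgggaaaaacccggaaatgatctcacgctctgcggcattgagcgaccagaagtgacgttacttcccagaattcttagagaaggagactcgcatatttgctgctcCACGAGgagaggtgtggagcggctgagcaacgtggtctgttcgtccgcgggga
Ncl promoter, chr1:86359406-86359705, minus strand: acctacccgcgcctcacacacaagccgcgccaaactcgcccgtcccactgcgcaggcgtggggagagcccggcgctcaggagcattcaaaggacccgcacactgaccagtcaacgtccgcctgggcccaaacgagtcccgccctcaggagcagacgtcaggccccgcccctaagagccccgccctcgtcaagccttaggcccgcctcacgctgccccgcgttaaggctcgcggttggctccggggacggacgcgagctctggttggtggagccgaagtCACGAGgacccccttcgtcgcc
Nop56 promoter, chr2:130274162-130274461, plus strand: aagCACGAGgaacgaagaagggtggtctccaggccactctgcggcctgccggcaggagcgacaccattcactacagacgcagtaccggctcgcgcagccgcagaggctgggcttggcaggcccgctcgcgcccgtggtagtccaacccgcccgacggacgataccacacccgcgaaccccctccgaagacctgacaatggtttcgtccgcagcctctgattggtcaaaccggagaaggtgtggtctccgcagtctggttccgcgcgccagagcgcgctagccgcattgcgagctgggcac
Odc1 promoter, chr12:17544623-17544922, plus strand: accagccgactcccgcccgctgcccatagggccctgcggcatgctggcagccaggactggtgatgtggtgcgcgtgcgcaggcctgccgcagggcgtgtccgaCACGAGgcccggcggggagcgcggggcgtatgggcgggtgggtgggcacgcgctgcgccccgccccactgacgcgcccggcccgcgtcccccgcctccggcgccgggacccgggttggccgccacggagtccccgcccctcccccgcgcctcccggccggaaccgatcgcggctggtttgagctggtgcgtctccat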

How the data were processed

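Spatial gene expression (Visium) was measured in 1 control and 1 metastatic mouse lung section. The authors made the deposited counts (unique molecules per gene and spot, not normalized) with Space Ranger 1.3.1 on mm10, per the labels, and all 2998 tissue spots were used. Levels were pooled counts of a region per 10000, with exact 95% Poisson intervals, ratios with exact binomial intervals, and shares with exact binomial intervals; all cover counting error only, since molecules of 1 section are not replicates. Genes with 50 counts in both regions together were compared at 1.5-fold. Spots were correlated on the natural log of the level plus 1, with no p. Depth ranged from 162 to 83152 counts per spot. Python 3.11.15, numpy 2.4.6, scipy 1.17.1, pandas 2.3.3 and matplotlib 3.10.9 were used, and the scripts were tested on simulated data. Thresholds, regions, depth and library size were varied. Named genes were the 9 members, the 3 core genes, and genes from the 3 highest and 3 lowest of each list. Genes from the 10 most like Myc or the nucleolar sum were named as well. The lowest genes were left out or named only in part for the small subunit, large subunit, other nucleolar and polyamine lists. The members and gene lists were chosen with earlier results of these data known, and the main body was set apart after its values were seen. Max and the epithelial markers were named outside that rule.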

Additional observations from a re-analysis of the deposited data

Results flagged for a closer look

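The 33 spots above the marker threshold with no neighbour above it entered no comparison between regions, though they were among the 1110 spots over which genes were ranked by likeness. Their 10 Myc counts in 288329 gave 0.347 counts per 10000 (95% Poisson interval 0.166 to 0.638), above the 0.0364 (0.0286 to 0.0457) of control lung. Odc1 stood at 1.01 (0.674 to 1.44) there against 0.596 (0.563 to 0.631), and the 7 nucleolar members together at 5.13 (4.34 to 6.03) against 3.70 (3.62 to 3.79). They are given here as data outside the comparisons with a level above control. Their Myc interval overlaps those of the intermediate zone (0.251 to 0.379) and far lung (0.142 to 0.204) of the same section, which are also above control, and 8 of the 33 lay at the distance of the margin. No cause was tested.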

How the results depend on the processing

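No paired analysis was possible because each group was 1 section. The core over far ratio was 14.8 for Myc and 5.99 for the nucleolar sum. For Myc it was 12.1 with the core taken from the top 5% of spots, 10.4 with spots holding each marker, 7.25 in core group 4 alone, 9.59 with the abundant genes left out of the totals and 22.8 with far lung beyond 1000 um. Among alternatives added after seeing the data, it was 11.3 with core groups of at least 5 spots and 11.4 with the main body and distances from it. For the nucleolar sum the same added settings gave 5.44 and 5.46, the core groups 1 to 4 alone gave 6.57, 4.995, 5.09 and 3.73, and leaving out the abundant genes, equal depth, a mean of spots and far lung beyond 1000 um gave 3.89, 4.86, 4.84 and 6.56.

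The margin over far ratio was 6.21 for Myc and 2.71 for the nucleolar sum. For Myc it was 11.2 from the top 5%, 11.3 from spots with each marker, 20.2, 8.68, 15.9 and 3.25 around the core groups 1 to 4, 7.96 and 10.3 under the 2 added settings, 4.39 without the abundant genes, 9.60 with far lung beyond 1000 um, 9.18 in the adjacent margin and 1.94 in the outer margin. For the nucleolar sum it was 4.18, 3.11 (top 10%), 4.56, then 5.39, 3.53, 4.41 and 3.04 around the groups, 3.57 and 4.31 under the added settings, 1.91 without the abundant genes, 2.42 at equal depth, 2.55 as a mean of spots, 2.96 beyond 1000 um, 3.35 adjacent and 1.79 outside. Rrs1 reversed to 0.568 around core group 3 and 0.964 in the outer margin.

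The far over control ratio of Myc was 4.70, and 6.77 with distances from the main body, 3.23 at equal depth and 3.04 beyond 1000 um. That of the nucleolar sum was 0.913, 0.834 beyond 1000 um, and reversed to 1.10 with distances from the main body and 1.08 without the abundant genes. Odc1 reversed to 1.07, 1.04, 1.01 (equal depth) and 1.15 (mean of spots), Nop56 to 1.05 and 1.06 and Nop58 to 0.879. At a minimum of 200 counts 0 members were called in far over control, since Myc had fewer. With a minimum of 10 counts 4.17% of all genes were higher there, with 200 counts 1.16%, with distances from the main body 3.67% and without the abundant genes 4.80%.

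The correlation of the nucleolar sum with Myc over core spots was 0.53, and 0.41 at equal depth, 0.29 without the log, 0.71 averaged with adjacent spots, 0.32 from the top 5% and 0.0661 in the main body. Over the margin it was 0.54, and 0.35, 0.83 (averaged) and 0.32 without Npm1. Over far lung it was 0.18 and 0.47 averaged. In the main body it was 0.07, and 0.17 at equal depth, -0.0932 without the log, 0.22 averaged and -0.0641 without Npm1. The cause of these changes was not tested. At a 2-fold threshold 24.8%, 13.7% and 0.662% of all genes were higher in core over far, margin over far and far over control, against 40.9%, 40.4% and 2.09% at 1.5-fold. Of 272 values of single genes under the alternatives, 147 stayed within the interval, 116 moved beyond it in the same direction and 9 reversed. For Myc, the nucleolar sum, the counts of members and the correlations, 80 values stayed, 62 moved and 2 reversed. Staying meant within the interval for ratios, within 0.1 for correlations and within 1.5-fold for counts. Depth limits the rarer members: in far lung Nop58 had 70 counts and Rrs1 had 90.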

Other observations

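The members had overlapping intervals in the 3 core groups of 8, 5 and 5 spots. In the group of 8 spots Myc stood at 2.44 (1.55 to 3.66) counts per 10000 and Odc1 at 1.59 (0.891 to 2.63). In the 2 groups of 5 spots Myc stood at 2.18 (1.31 to 3.40) and 1.24 (0.455 to 2.70), and Odc1 at 2.52 (1.58 to 3.82) and 4.13 (2.52 to 6.38). The nucleolar sum was 16.9 (14.4 to 19.7), 17.2 (14.6 to 20.2) and 12.6 (9.64 to 16.2) in the 3 groups, each below the 22.2 (21.4 to 23.0) of the main body. In control lung, the 5% of spots richest in smooth muscle genes had 3.11-fold (1.42 to 6.10) more Myc than the other spots, from 10 counts, and those richest in B cell genes had 1.35-fold (1.203 to 1.52) more of the nucleolar sum.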
